A study of Komagataella pastoris with 6 samples.

Results

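Glycerol use in Pichia pastoris was followed through 3 genes of the 5040 in the count table: the glycerol kinase gene GUT1 (PAS_chr4_0783), the mitochondrial glycerol 3-phosphate dehydrogenase gene GUT2 (PAS_chr3_0579) and a channel gene listed in the study as a homolog of S. cerevisiae FPS1 (PAS_chr4_0784). They were chosen by identifier because the cultures grew on glycerol, and FPS1 also because its identifier directly follows that of GUT1. The study named FPS1 among its selected differentially expressed genes. The rise of FPS1 in these libraries was therefore known before it was chosen and is not independent evidence. The count table holds identifiers only, so the names GUT1 and GUT2 rest on the usual annotation of these identifiers and were not checked against sequence here.

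In yeast, glycerol taken up from the medium is phosphorylated by the kinase Gut1 in the cytosol. The product, glycerol 3-phosphate, is oxidised by Gut2, a flavoprotein of the inner mitochondrial membrane that passes electrons to the respiratory chain, and the resulting dihydroxyacetone phosphate enters glycolysis or gluconeogenesis. Fps1 of S. cerevisiae is an aquaglyceroporin, a membrane channel through which glycerol leaves the cell when external osmolarity drops and through which undissociated acetic acid can enter.

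RNA was sequenced from 2 strains, KM71-ScFlo1-LpDLDH and KM71-LpDLDH, with 3 cultures of each. KM71-ScFlo1-LpDLDH is P. pastoris KM71 with the S. cerevisiae flocculation gene ScFLO1, placed behind the constitutive GAP promoter on a plasmid with a HIS4 marker, and with the Leuconostoc pseudomesenteroides d-lactate dehydrogenase gene LpDLDH, placed behind the same promoter on a hygromycin plasmid. KM71-LpDLDH carries LpDLDH without ScFLO1 and served as the control. Both derive from KM71, known as a histidine auxotroph with a disrupted AOX1, but the HIS4 marker came with the ScFLO1 plasmid only. Both grew in MGYH, a minimal glycerol medium with histidine, from an OD600 of 0.05 at 30 °C and 250 rpm. Sampling came after about 21 h, which the methods give as the mid-exponential phase. ScFLO1, its plasmid and marker, and any other difference between the strains as isolated cannot be told apart. How much glycerol was left at sampling was not analysed here.

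The libraries held 10386352 to 12494758 reads on genes in KM71-ScFlo1-LpDLDH and 12127429 to 12767753 in KM71-LpDLDH. Expression levels are CPM, the reads of a gene scaled to the library size with edgeR's TMM factors. Values of single libraries follow the order of replicates 1, 2 and 3 of a strain. A fold change divides KM71-ScFlo1-LpDLDH by KM71-LpDLDH. Genes averaging 10 or more reads, 5029 in all, entered the quasi-likelihood test of edgeR, and p-values were adjusted over all of them by the Benjamini-Hochberg method. To be called differentially expressed, a gene needed a change of more than 2-fold together with an adjusted p below 0.05. The 3 genes all passed the filter on low counts.

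All 3 genes were upregulated in KM71-ScFlo1-LpDLDH, GUT1 by 13.0-fold, GUT2 by 4.31-fold and FPS1 by 2.21-fold. As a background, 8.41% of all tested genes were called higher in KM71-ScFlo1-LpDLDH, and the median log2 fold change over all of them was 0.02. For each of the 3 genes, the lowest library of KM71-ScFlo1-LpDLDH lay above the highest library of KM71-LpDLDH, a separation that 35.3% of the tested genes showed in this direction. Each library is RNA from a whole culture, so a change in every cell and a change in a part of the cells cannot be told apart.

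GUT1, which commits glycerol to metabolism, had 1031, 1137 and 973.1 CPM in KM71-ScFlo1-LpDLDH, against 61.66, 82.95 and 97.0 CPM in KM71-LpDLDH. The strains were far apart, with the lowest KM71-ScFlo1-LpDLDH library 10.0 times the highest KM71-LpDLDH library. In reads, the gene received 10048 to 13833 per library of KM71-ScFlo1-LpDLDH and 718 to 1128 per library of KM71-LpDLDH. GUT1 averaged 1047 ± 83.2 CPM in KM71-ScFlo1-LpDLDH and 80.5 ± 17.8 CPM in KM71-LpDLDH (SD, n = 3 each), a change of 3.70 in log2 units, standard error 0.20 (adjusted p = 6.42e-08 by edgeR). This was the rise of rank 7 among the tested genes.

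GUT2, which oxidises the product of Gut1, had 1445, 1567 and 1436 CPM in KM71-ScFlo1-LpDLDH, against 298.4, 353.2 and 380.1 CPM in KM71-LpDLDH. The lowest library of KM71-ScFlo1-LpDLDH was 3.78 times the highest of KM71-LpDLDH. GUT2 averaged 1482 ± 72.9 CPM in KM71-ScFlo1-LpDLDH and 344 ± 41.7 CPM in KM71-LpDLDH (SD, n = 3 each), a change of 2.11 in log2 units, standard error 0.11 (adjusted p = 1.88e-07 by the same edgeR test) and rank 67 among the rises. GUT1 and GUT2 thus also passed a stricter cut-off of 4-fold, which FPS1 did not.

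FPS1, the channel gene, had 515, 547.5 and 537.5 CPM in KM71-ScFlo1-LpDLDH, against 212.7, 223 and 287.1 CPM in KM71-LpDLDH. Its gap between the strains was the narrowest of the 3 genes, with the lowest KM71-ScFlo1-LpDLDH library 1.79 times the highest of KM71-LpDLDH. FPS1 averaged 533 ± 16.7 CPM in KM71-ScFlo1-LpDLDH and 241 ± 40.3 CPM in KM71-LpDLDH (SD, n = 3 each), a change of 1.15 in log2 units, standard error 0.14 (adjusted p = 1.53e-05 by the same edgeR test) and rank 319 among the rises. Its log2 fold change lay close to the cut-off of 1, and it was 1.06 without replicate 1 of KM71-LpDLDH.

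**Figure D1:**
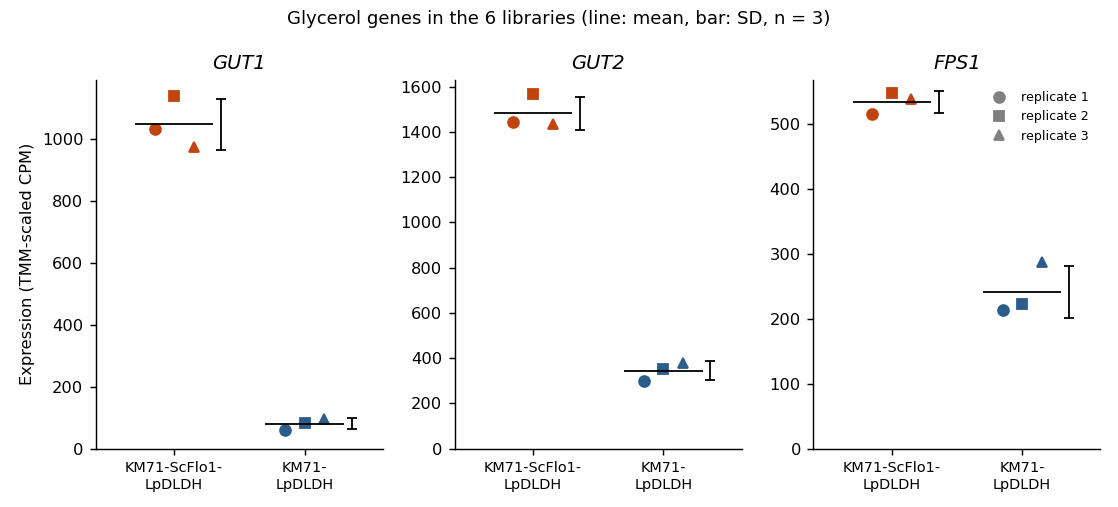
Expression of GUT1, GUT2 and FPS1 in TMM-scaled CPM (vertical axes from 0, one scale per gene) in the 3 libraries of KM71-ScFlo1-LpDLDH and the 3 of KM71-LpDLDH. Points are libraries, lines are means and bars are the SD over 3 libraries. GUT1 sat between 973.1 and 1137 CPM in KM71-ScFlo1-LpDLDH and between 61.66 and 97.0 CPM in KM71-LpDLDH, and the strains did not overlap for any of the 3 genes.

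**Figure D2:**
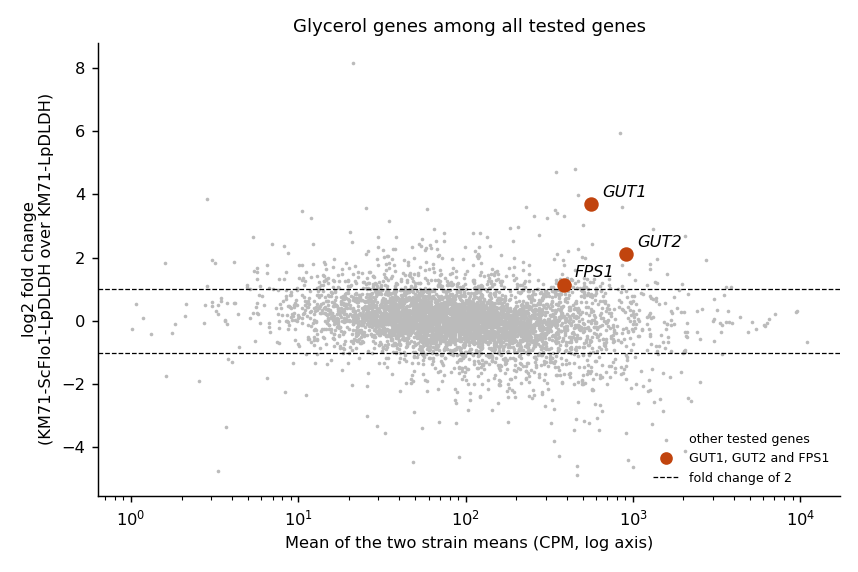
The log2 fold change of every tested gene (vertical axis) against the mean of the strain means in CPM (horizontal log axis), with GUT1, GUT2 and FPS1 as large points, the other genes in grey and dashed lines at a fold change of 2. GUT1 stood at 3.70 and GUT2 at 2.11, both far above the upper line, while FPS1 lay just above it at 1.15.

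Relative to the mean, the replicates of these genes lay closer together in KM71-ScFlo1-LpDLDH than in KM71-LpDLDH, a difference that was not tested. In KM71-ScFlo1-LpDLDH, the coefficient of variation was 7.95% for GUT1, 4.92% for GUT2 and 3.13% for FPS1. In KM71-LpDLDH it was 22.1% for GUT1, 12.1% for GUT2 and 16.7% for FPS1. Replicate 1 of KM71-LpDLDH was the lowest and replicate 3 the highest of that strain for all 3 genes. On the log2 CPM scale, the SD of GUT1 was 0.11 in KM71-ScFlo1-LpDLDH and 0.33 in KM71-LpDLDH, where the median SD over all tested genes was 0.11 in both strains. In KM71-LpDLDH, 96.0% of the tested genes had a smaller SD than GUT1, 87.8% a smaller one than FPS1 and 77.1% a smaller one than GUT2. The same shares in KM71-ScFlo1-LpDLDH were 49.7% for GUT1, 13.3% for FPS1 and 26.8% for GUT2. The counting error of a single library, at most 3.73% for these genes, was for each gene smaller than its coefficient of variation in the same strain.

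The 3 genes together took 0.293% to 0.34% of the reads of a library in KM71-ScFlo1-LpDLDH and 0.055% to 0.0719% in KM71-LpDLDH. GUT2 drew the most reads of the 3 in every library of both strains. The order of the other two was not the same in the strains: GUT1 drew more reads than FPS1 in each library of KM71-ScFlo1-LpDLDH and fewer in each library of KM71-LpDLDH. Gene lengths were not used here, so these are shares of reads and not an order of transcript levels.

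Whether the 3 genes rose by different amounts was examined with the ratio of their read counts within each library, from which the scaling of the libraries cancels. The GUT1 to FPS1 ratio was 2.00, 2.08 and 1.81 in KM71-ScFlo1-LpDLDH, against 0.29, 0.372 and 0.338 in KM71-LpDLDH. Its mean log2 value was 0.97 in KM71-ScFlo1-LpDLDH and -1.59 in KM71-LpDLDH, a difference of 2.56 (standard error 0.12). The ratio was thus 5.91 times as high in KM71-ScFlo1-LpDLDH, which restates the unequal fold changes of GUT1 and FPS1. The 2 sets of libraries did not overlap. The share of other gene pairs that separate in this way was not counted, while 35.3% of single genes separated the strains upward.

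For the kinase against the dehydrogenase, the GUT1 to GUT2 ratio was 0.713, 0.726 and 0.678 in KM71-ScFlo1-LpDLDH, against 0.207, 0.235 and 0.255 in KM71-LpDLDH. The log2 difference was 1.61 (standard error 0.09), so the ratio of the kinase to the enzyme after it was 3.05 times as high in KM71-ScFlo1-LpDLDH. The FPS1 to GUT2 ratio moved the other way, at 0.356, 0.35 and 0.374 in KM71-ScFlo1-LpDLDH, against 0.713, 0.631 and 0.755 in KM71-LpDLDH, a log2 difference of -0.96 (standard error 0.08). For each of these 3 ratios, the two-sided exact permutation test gave p = 0.1 (0.1 after adjustment over the 3), the smallest that 3 libraries against 3 allow, so none could pass 0.05. Each difference was far larger than the spread between replicates.

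**Figure D3:**
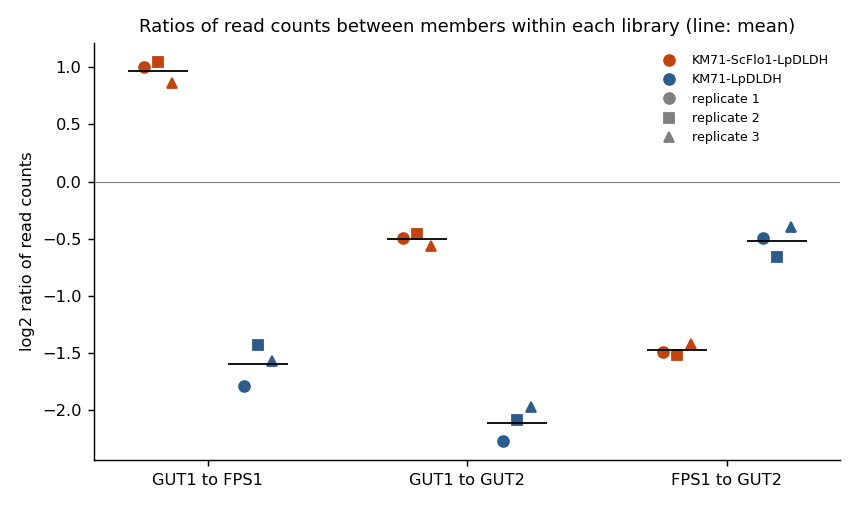
The log2 ratio of read counts between members within each library (vertical axis) for the 3 pairs of genes, in KM71-ScFlo1-LpDLDH to the left of KM71-LpDLDH. Points are libraries and lines are means. The GUT1 to FPS1 ratio averaged 0.97 in KM71-ScFlo1-LpDLDH and -1.59 in KM71-LpDLDH, and the strains did not overlap in any of the 3 pairs. The share of other gene pairs that separate in this way was not counted.

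GUT1 and FPS1 have consecutive identifiers, and the genes numbered around them were not called. The gene numbered before GUT1, PAS_chr4_0782, had 26.9 ± 1.11 CPM in KM71-ScFlo1-LpDLDH and 27.7 ± 2.7 CPM in KM71-LpDLDH (SD, n = 3 each), a log2 fold change of -0.04. The gene numbered after FPS1, PAS_chr4_0785, had 3267 ± 195 CPM in KM71-ScFlo1-LpDLDH and 3567 ± 109 CPM in KM71-LpDLDH (SD, n = 3 each), a log2 fold change of -0.13 with an adjusted p of 0.312 by edgeR. Of the 20 genes within 10 numbers of the pair, 0 were called in either direction, with log2 fold changes between -0.79 and 0.84 and a median of 0.10. Not called does not mean unchanged. The highest (PAS_chr4_0774, adjusted p = 0.000417 by edgeR) and the lowest (PAS_chr4_0786, adjusted p = 0.000165 by edgeR) missed only the 2-fold cut-off. At an adjusted p under 0.05 alone, 3227 of all 5029 tested genes passed. Over all tested genes, 8.41% were called higher and 7.99% lower.

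Neighbouring calls of this kind were counted over the whole table. Of 4775 pairs of tested genes with consecutive numbers, 397 had a first gene called higher in KM71-ScFlo1-LpDLDH. In 59 of these (14.9%) the second was called higher too, GUT1 and FPS1 among them. Over all tested genes, 8.41% were called higher, and the difference between these shares was not tested. FPS1 gained 292 CPM and GUT1 966 CPM between the strain means. FPS1 carried 0.482 to 0.552 reads for each GUT1 read in KM71-ScFlo1-LpDLDH and 2.69 to 3.45 in KM71-LpDLDH. Gene positions, the overlap of transcripts and the strand of the reads were not analysed here, so the part that reads from the neighbouring gene had in the rise of FPS1 was not tested.

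The gene numbered before GUT2, PAS_chr3_0578, was called as well. It had 211.4, 112.7 and 63.72 CPM in KM71-ScFlo1-LpDLDH, against 18.81, 20.76 and 16.34 CPM in KM71-LpDLDH. Its libraries of KM71-ScFlo1-LpDLDH differed more than 3-fold among themselves, where those of GUT2 lay close together. The log2 fold change of PAS_chr3_0578 was 2.80 with a standard error of 0.51 (adjusted p = 8.82e-05 by edgeR), and 2.24 without replicate 1 of KM71-ScFlo1-LpDLDH. Its reads were 0.146, 0.0719 and 0.0444 of those of GUT2 in KM71-ScFlo1-LpDLDH, against 0.063, 0.0588 and 0.043 in KM71-LpDLDH. The ratio therefore overlapped between the strains. The part of either gene in the reads of the other was not tested.

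On the other side of GUT2, the next identifier in the table, PAS_chr3_0581, had 86.6 ± 5.12 CPM in KM71-ScFlo1-LpDLDH and 86.0 ± 4.17 CPM in KM71-LpDLDH (SD, n = 3 each). Of the 19 genes within 10 numbers of GUT2, 1 was called higher (PAS_chr3_0578) and 1 lower (PAS_chr3_0586, at a log2 fold change of -1.08), and the other 17 were not called. These counts lie near the background of 8.41% called higher and 7.99% called lower. The median over the 19 genes was 0.20.

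**Figure D4:**
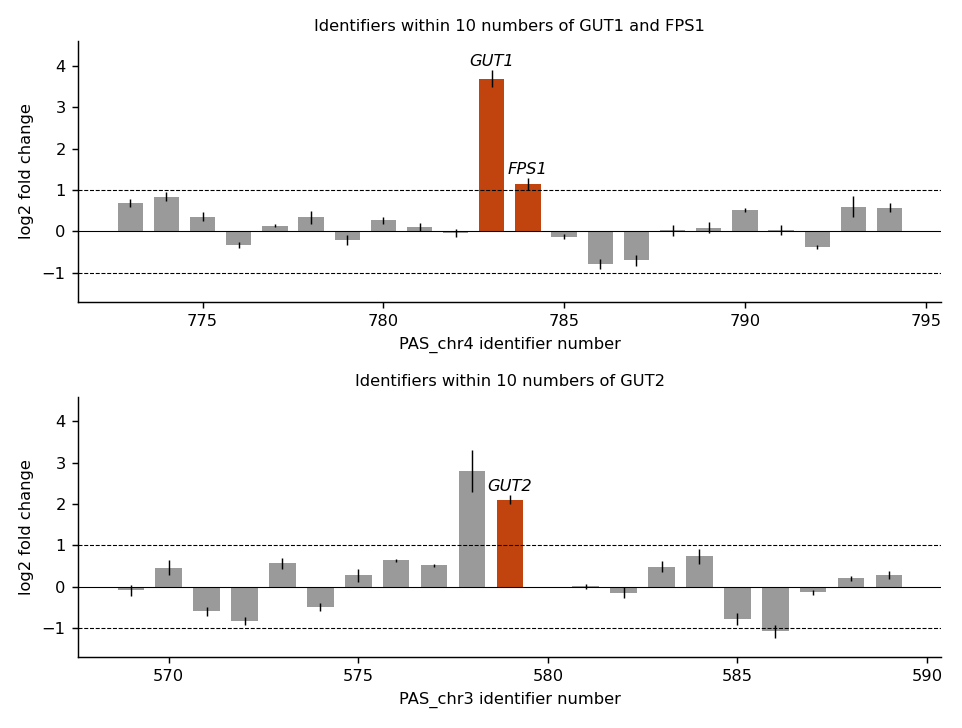
The log2 fold change (bars, with the standard error as lines) of genes ordered by identifier number within 10 numbers of GUT1 and FPS1 (upper panel) and of GUT2 (lower panel), with dashed lines at a fold change of 2 in either direction. GUT1 at 3.70 and FPS1 at 1.15 were the only genes past these lines in the upper panel. In the lower panel GUT2 at 2.11 stood beside PAS_chr3_0578 at 2.80, and PAS_chr3_0586 reached -1.08.

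FPS1 is 1 of the 8 genes that the study lists as upregulated in transport. Of these 8, 5 were called higher and 0 lower, with a median log2 fold change of 1.14 and a range from 0.40 to 1.33, against 8.41% called higher, 7.99% called lower and a median of 0.02 over all tested genes. FPS1 ranked 4 among them. The study chose this list on these libraries for upregulation, so it is not independent evidence of a direction. Other transporter genes, which the study lists as downregulated, were not counted here.

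The genes whose pattern over the 6 libraries was most like that of each member were found by the distance between log2 CPM values centred on the mean of each gene, as a description. For GUT1 these were PAS_chr1-1_0076 (distance 0.55), PAS_chr4_0988 (0.67) and PAS_chr2-1_0052 (0.84), with log2 fold changes of 3.55, 3.33 and 3.41. PAS_chr2-1_0052, for example, had 646 ± 96.7 CPM in KM71-ScFlo1-LpDLDH and 60.6 ± 11.1 CPM in KM71-LpDLDH (SD, n = 3 each). For GUT2 they were PAS_chr4_0572, PAS_chr2-2_0300 and PAS_chr1-1_0130, at distances of 0.35, 0.35 and 0.37. PAS_chr2-2_0300 had 774 ± 10.2 CPM in KM71-ScFlo1-LpDLDH and 160 ± 8.5 CPM in KM71-LpDLDH (SD, n = 3 each).

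FPS1 had closer matches than GUT1 and GUT2. The distance depends largely on the size of the change between the strains. Fewer genes rose as much as GUT1 (rank 7) or GUT2 (rank 67) than as much as FPS1 (rank 319). PAS_chr1-1_0171, PAS_chr3_0987 and PAS_chr3_0417 lay at distances of 0.08, 0.13 and 0.21, with log2 fold changes of 1.20, 1.15 and 1.04. PAS_chr1-1_0171 had 197 ± 10.5 CPM in KM71-ScFlo1-LpDLDH and 86.0 ± 14.1 CPM in KM71-LpDLDH (SD, n = 3 each). The members were not each other's closest matches: the distance was 1.98 between GUT1 and GUT2, 1.19 between GUT2 and FPS1 and 3.15 between GUT1 and FPS1. These distances largely follow from the unequal fold changes of the members. Whether the members varied together between replicates of a strain was not tested. No gene name is given for these 9 identifiers because none of the sources used here holds one.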

How the data were processed

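According to the methods, total RNA was sequenced as 150 bp paired reads, quality-filtered by fastp, aligned by HISAT2 to the genome of strain GS115 and summed per gene by HTSeq-count. Versions and strand settings were not given in the sources used here. Read counts deposited by the authors fill 1 table of 5040 genes. It is named as normalized but was treated as raw counts, since the values are whole, the totals differ and DESeq2 size factors ran from 0.871 to 1.15 rather than lying near 1. Of the table's columns, 0 belonged to no sample. Replicate libraries differed by far more than counting noise (chi-square per degree of freedom of 11.9 to 68.1), and the methods state triplicate cultures.

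Genes averaging 10 or more reads (5029, leaving out 11) were tested with edgeR 4.0.16 in R 4.3.3 (TMM scaling, quasi-likelihood, prior count 0.125). DESeq2 1.42.0, limma 3.58.1 with voom, other scalings, filters and prior counts, a block for the replicate number and the omission of single libraries were alternatives. Standard errors of fold changes, and the distances, used log2 CPM with a prior count of 2. Standard errors of the ratios used log2 ratios of the read counts with nothing added. The edgeR, DESeq2 and limma tests were tested on simulated data. Ratios of counts were compared by exact permutation, which was not tested in this way. The 10386352 to 12767753 reads per library leave little counting error, and the counting errors given cover counting error only.

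The genes and lists were chosen with earlier results of these data known. Named were the 3 genes, those numbered beside them and the 3 closest patterns for each. PAS_chr3_0586, PAS_chr4_0774 and PAS_chr4_0786 were named after their values were seen. A wider list of glycerol genes by annotation was planned but not run, because 0 of the 5040 identifiers matched the reference table, which is for another Komagataella assembly.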

Additional observations from a re-analysis of the deposited data

How the results depend on the processing

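GUT1, GUT2 and FPS1 stayed upregulated and past both thresholds in 14 of 14 alternatives each. When single libraries were omitted, the log2 fold change ranged from 3.54 to 3.85 for GUT1, from 2.01 to 2.19 for GUT2, from 1.06 to 1.29 for FPS1 and from 2.24 to 3.12 for PAS_chr3_0578, the last added after its values were seen. Other tools, scalings, filters and prior counts gave 3.69 to 3.81 for GUT1, 2.09 to 2.21 for GUT2 and 1.13 to 1.25 for FPS1. Over all these alternatives the adjusted p was at most 4.22e-06, 9.37e-06 and 0.000255 for GUT1, GUT2 and FPS1 (edgeR's quasi-likelihood test in each of these cases). With total-count scaling the median log2 fold change over all genes was 0.13 instead of 0.02, FPS1 was at 1.25, and 522 genes were called higher and 340 lower (60.6% of the calls higher) instead of 423 and 402 (51.3%).

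The 3 log2 read ratios kept their sign in 8 of 8 alternatives each, and on omission of single libraries lay between 2.47 and 2.65 for GUT1 to FPS1, 1.53 and 1.68 for GUT1 to GUT2, and -1.03 and -0.90 for FPS1 to GUT2. The number of genes called was 825, between 794 and 886 on omission of single libraries, 3227 at an adjusted p under 0.05 alone and 166 at a fold change above 4, since the cut-off sets how many pass.

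The replicate numbers do not state that cultures were paired, so they were not taken as pairs. Deviations from the strain mean correlated across genes at -0.13, 0.05 and 0.11 for numbers 1, 2 and 3. Differently numbered cultures gave -0.25 to 0.28, so with 3 libraries per strain these values cannot decide on a pairing. With the replicate number as a block, the log2 fold changes were 3.72, 2.11 and 1.16 for GUT1, GUT2 and FPS1, 829 genes were called, and the exact test of the ratios could not go below p = 0.25.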
